A study of Homo sapiens with 24 samples.

Results

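The response to ABT-869 was compared between 2 human acute myeloid leukaemia lines, MOLM-14 and MV4-11, as the change with ABT-869 against DMSO in MOLM-14 minus the same change in MV4-11. This value is called the line difference below: it is on the log2 scale, and a positive value means that the response was higher (more positive) in MOLM-14. The comparison used 12 of the 24 arrays of the study, 3 for each of MOLM-14 with ABT-869, MOLM-14 with DMSO, MV4-11 with ABT-869 and MV4-11 with DMSO, chosen by their labels, and all 54613 probe sets that are not array controls. Both lines are of the monocytic M5 subtype and carry an internal tandem duplication of the receptor tyrosine kinase FLT3 (FLT3-ITD): MV4-11 cells hold only the duplicated allele, and MOLM-14 cells hold 1 duplicated and 1 wild-type allele. ABT-869 is an inhibitor of several receptor tyrosine kinases, FLT3 among them, and was given at 3 nM for 24 hours, with its solvent DMSO as control. The other 12 arrays held the same lines with the histone deacetylase inhibitor SAHA at 6 µM, alone or with ABT-869. Each array measured a separate culture of an established line, so the comparison describes these lines and is not a sample of patients, and every property that separates the lines moves with the label of the line.

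A FLT3 receptor with a tandem duplication is active without its ligand and drives STAT5, the RAS and ERK cascade and the PI3K and mTOR pathway. In cells that depend on it, an inhibitor lowers the genes these pathways switch on, such as PIM1 and CISH behind STAT5 and EGR1 and the SPRY genes behind ERK. ATF4 is a transcription factor that raises amino acid uptake, amino acid synthesis and tRNA charging when translation is held back by stress, and growth signals through mTOR also raise it.

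The signals were already scaled by the authors to 1 trimmed mean of 500.06 to 500.07, and the median signal was 69.2 to 99.4 on the 12 arrays. Between 25.5% and 33.3% of the signals of an array were under 32, the level to which low signals were raised here before log2 was taken. Arrays of a group correlated at 0.968 to 0.984. The spread of an array around its group mean (SD over probe sets) was 0.256 to 0.351 on the log2 scale. It was widest for replicate 2 of MV4-11 with ABT-869. The median signal was higher in the MV4-11 than in the MOLM-14 arrays. Within MV4-11 it was 96.2 to 99.4 with ABT-869 and 89.1 to 91.8 with DMSO, without overlap. In MOLM-14 both groups overlapped, at 73.3 to 76.5 with ABT-869 and 69.2 to 79.3 with DMSO. All 24 arrays entered 1 limma fit, which tested each probe set with Benjamini-Hochberg adjustment over all probe sets.

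The line difference passed an adjusted p of 0.05 for 713 of 54613 probe sets (1.31%), 383 of them higher (0.701%) and 330 lower (0.604%) in MOLM-14. At an unadjusted p under 0.05 there were 6789. With every array centred on its median the same test called 581, of which 405 were higher and 176 lower, so that the share of higher calls was 69.7%, against 53.7% without centring. A fit of only the 12 arrays called 320, of which 247 were among the 713. Within the lines, ABT-869 changed 220 probe sets in MOLM-14 (0.403%), 67 up (0.123%) and 153 down (0.28%), and 3502 in MV4-11 (6.41%), 1799 up (3.29%) and 1703 down (3.12%). With 1 probe set for each of 19775 genes, the line difference passed for 439 genes (2.22%), 245 higher (1.24%) and 194 lower (0.981%), and its median over all genes was 0. By the same count, 145 genes changed in MOLM-14 (0.733%) and 1930 in MV4-11 (9.76%).

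Most of the called line differences lay beside a change that passed the test in MV4-11 and not in MOLM-14. Of the 383 higher probe sets, 350 (91.4%) passed the test as a fall in MV4-11 only, 9 as a rise in MOLM-14 only, 5 as a fall in both lines and 1 as a rise in MOLM-14 with a fall in MV4-11, and 18 passed in neither line. Their median change was 0.07 in MOLM-14 and -0.60 in MV4-11. Of the 330 lower probe sets, 290 (87.9%) passed as a rise in MV4-11 only, 18 as a fall in MOLM-14 only, 3 as a rise in both and 2 as a fall in MOLM-14 with a rise in MV4-11, and 17 passed in neither. Their median change was -0.11 in MOLM-14 and 0.67 in MV4-11. These classes share arrays with the line difference and describe it. In the plot of both responses the called probe sets form a pair of clouds to the left and right of 0 that are centred near no change on the MOLM-14 axis.

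**Figure D1:**
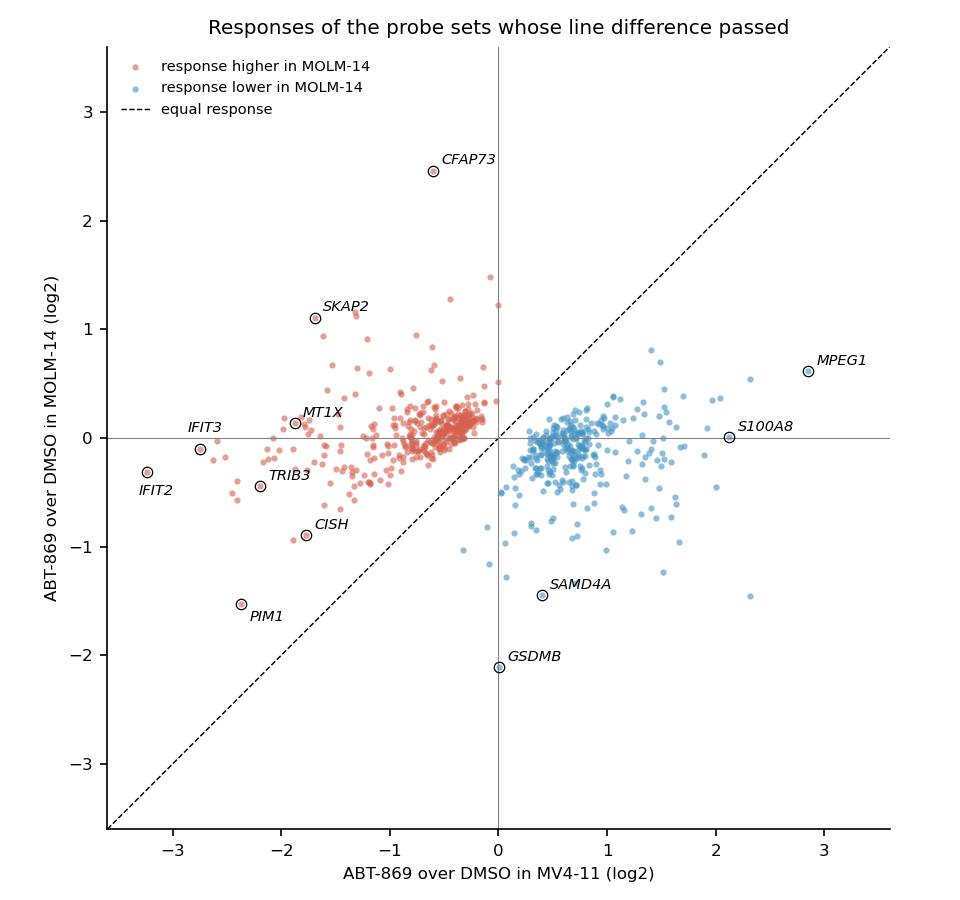
Change with ABT-869 against DMSO in MOLM-14 (vertical axis, log2) and in MV4-11 (horizontal axis, log2) for the 713 probe sets with a called line difference, 383 higher (red) and 330 lower (blue) in MOLM-14; each point is 1 probe set, and the dashed line marks equal responses. Most points lie near 0 on the vertical axis and away from 0 on the horizontal one. Among the labelled genes, GSDMB, SAMD4A, PIM1 and CISH passed the test as a fall in MOLM-14 and CFAP73 as a rise.

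The 4 lists of amino acid genes (regulators and effectors around ATF4, serine and one-carbon enzymes, amino acid transporters and aminoacyl-tRNA synthetases) held 60 measured genes. The line difference was called higher for 19 of them, against 1.24% of all genes, and lower for 0, against 0.981%. Their median line difference was 0.34, against 0 over all genes. In MOLM-14, 3 of the 60 fell (0.506% of all genes did), and in MV4-11, 39 fell and 4 rose (5.06% and 4.7% of all genes). All 19 called genes fell in MV4-11, and none of the 19 passed the test in MOLM-14 (0.733% of all genes did).

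The regulators showed the widest separation. TRIB3, a pseudokinase induced by ATF4, had signals of 1966, 2203 and 2132 in MOLM-14 with ABT-869, of 3084, 2859 and 2627 in MOLM-14 with DMSO, of 2387, 2430 and 1880 in MV4-11 with ABT-869 and of 10385, 9692 and 10382 in MV4-11 with DMSO. MV4-11 cells in DMSO stood apart, and the signals of both lines overlapped under ABT-869. TRIB3 changed by -0.44 in MOLM-14 (adjusted p = 0.054) and fell by 2.19 in MV4-11, and the line difference was 1.75 ± 0.13 (SE, adjusted p = 4.13e-06). Its second probe set gave 2.34.

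CEBPB, a bZIP transcription factor of the myeloid lineage that also works with ATF4, had 1402, 1247 and 1489 in MOLM-14 with ABT-869, 1585, 1224 and 1523 in MOLM-14 with DMSO, 1585, 1432 and 1502 in MV4-11 with ABT-869 and 4402, 4721 and 4670 in MV4-11 with DMSO. The 9 arrays other than those of MV4-11 in DMSO covered 1 common range. CEBPB had a line difference of 1.55 ± 0.12 (adjusted p = 4.13e-06). ATF5, a bZIP factor translated under stress, had 538, 624 and 463 in MOLM-14 with ABT-869, 789, 802 and 562 in MOLM-14 with DMSO, 790, 725 and 944 in MV4-11 with ABT-869 and 5831, 3641 and 3832 in MV4-11 with DMSO. It fell 5.32-fold in MV4-11 and changed by -0.40 in MOLM-14 (adjusted p = 0.61), for a line difference of 2.01 ± 0.27.

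DDIT3 (CHOP), CEBPG and the oxidoreductase ERO1A were also higher, with line differences of 1.45, 0.93 and 0.41. These 3 were outside the rule for named genes and were named after their values were seen. ATF4 itself had a mean of 13462 in MOLM-14 with ABT-869 and 14059 with DMSO, and 13658 in MV4-11 with ABT-869 and 18163 with DMSO. It fell by 0.42 in MV4-11, and its line difference of 0.35 missed the threshold (adjusted p = 0.0969). Not every gene of the list differed between the lines. XBP1, a transcription factor of the unfolded protein response, fell by 0.62 in MOLM-14 and by 0.67 in MV4-11, and the 95% interval of its line difference was -0.198 to 0.308. CHAC1, which degrades glutathione, fell by 2.29 in MOLM-14 and by 1.41 in MV4-11, with an interval of -2.07 to 0.325.

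Among the enzymes, ASNS, which makes asparagine, had 1543, 1494 and 1533 in MOLM-14 with ABT-869, 1982, 1744 and 1841 in MOLM-14 with DMSO, 1931, 2031 and 1766 in MV4-11 with ABT-869 and 5490, 5170 and 5488 in MV4-11 with DMSO. Its line difference was 1.21 ± 0.11 (adjusted p = 1.62e-05). A dim second probe set gave -0.20 and was not called. The mitochondrial folate enzymes ALDH1L2 and MTHFD2 and the serine synthesis enzyme PSAT1 were higher as well, by 0.82, 0.77 and 0.74. PHGDH, the first enzyme of serine synthesis, had 0.60 and SHMT2 0.50, and neither passed. MTHFD2 and PSAT1 were named after their values were seen.

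The transporters SLC7A5 and SLC3A2, the light and heavy chains of the carrier for large neutral amino acids, were higher together. SLC7A5 had 4614, 5413 and 4175 in MOLM-14 with ABT-869, 5251, 4664 and 4107 in MOLM-14 with DMSO, 2960, 3035 and 3386 in MV4-11 with ABT-869 and 7504, 6915 and 7789 in MV4-11 with DMSO. MV4-11 lay above MOLM-14 in DMSO and below it in ABT-869, with no overlap in either treatment. Line differences were 1.26 ± 0.18 for SLC7A5 and 1.08 ± 0.14 for SLC3A2.

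Of the 17 aminoacyl-tRNA synthetases measured, 6 were higher and 0 lower (1.24% and 0.981% of all genes). WARS1, the tryptophanyl enzyme, which interferon-gamma also induces, had 1962, 2268 and 2120 in MOLM-14 with ABT-869, 2361, 2232 and 2281 in MOLM-14 with DMSO, 1588, 1484 and 1412 in MV4-11 with ABT-869 and 4022, 4054 and 4217 in MV4-11 with DMSO. As for SLC7A5, the order of the lines turned between the treatments. Line differences were 1.34 ± 0.10 for WARS1 and 0.82 ± 0.10 for the tyrosyl enzyme YARS1. The enzymes for glycine, serine, alanine and cysteine (GARS1, SARS1, AARS1 and CARS1, named after their values were seen) had 0.71, 0.62, 0.59 and 0.56. The lysyl, glutamyl-prolyl and valyl enzymes KARS1, EPRS1 and VARS1 had 0.18, 0.19 and 0.00 and were not called.

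**Figure D2:**
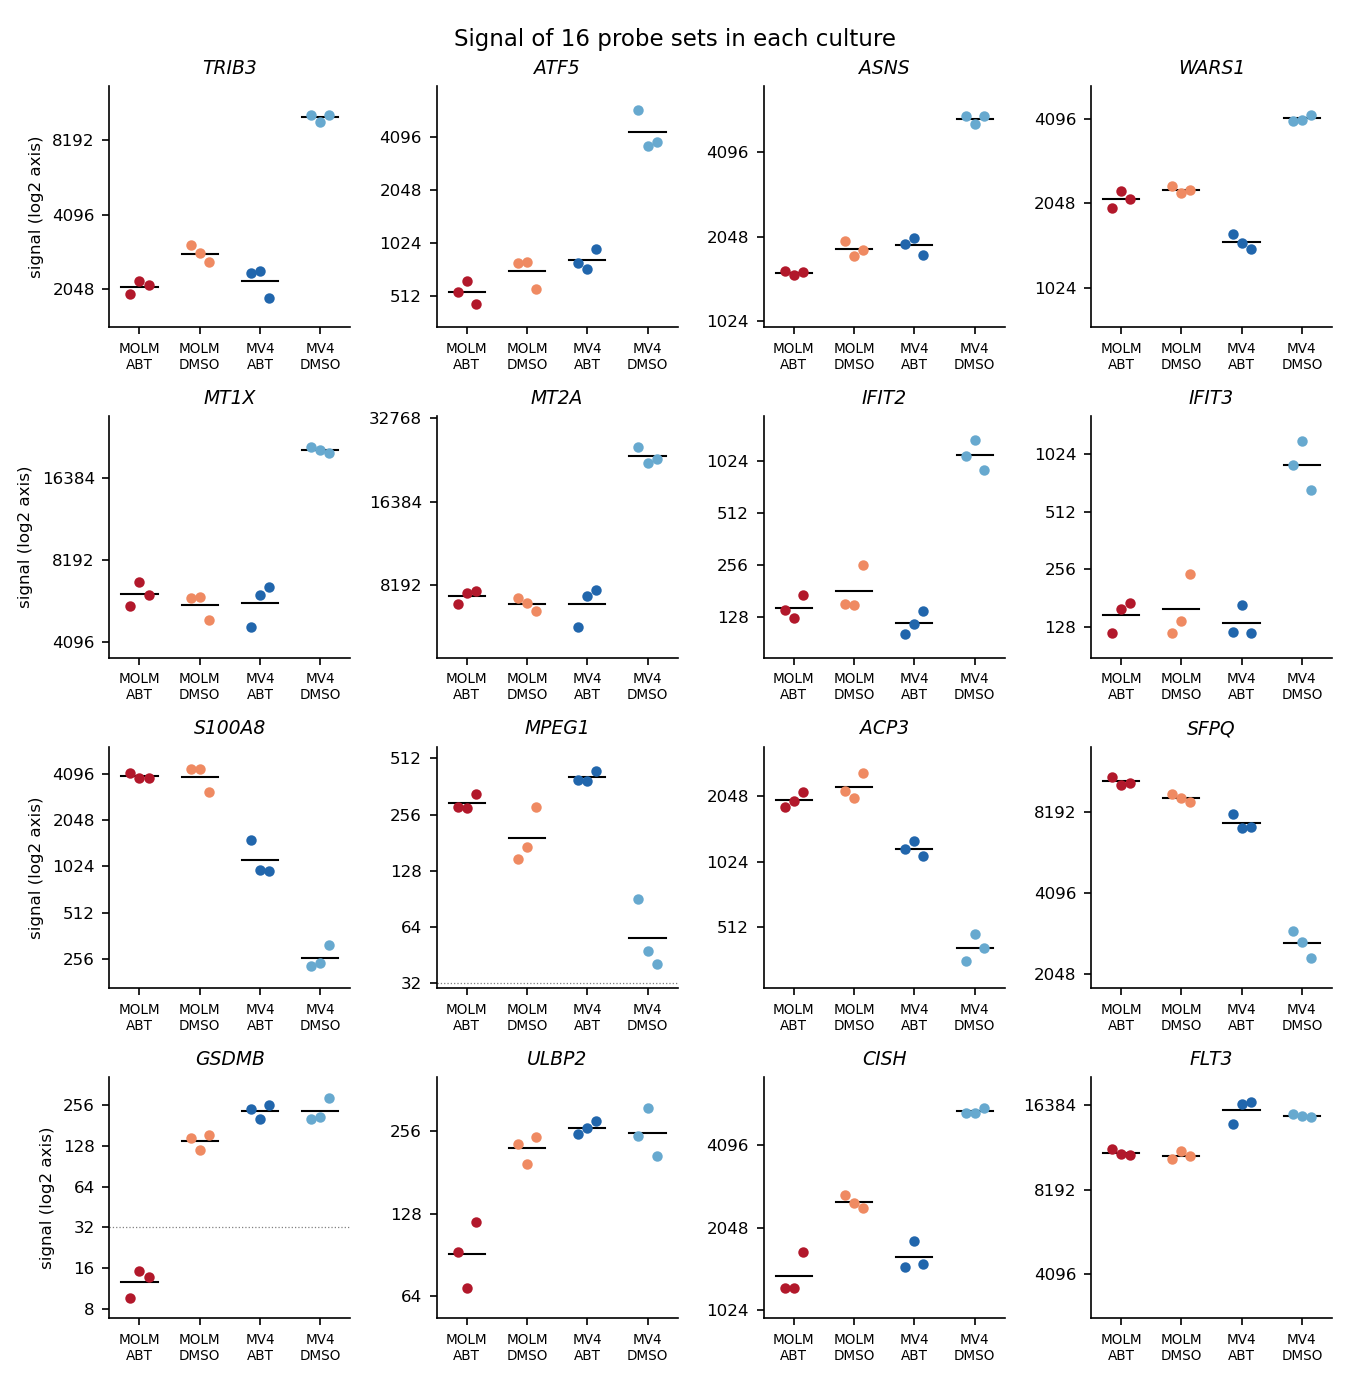
Signal on a log2 axis in each culture for 16 probe sets, with MOLM-14 ABT-869, MOLM-14 DMSO, MV4-11 ABT-869 and MV4-11 DMSO from left to right in each panel; points are cultures (n = 3 a group), bars are geometric means of the signals as deposited, and the dotted line, where shown, is the floor of 32. For TRIB3, ATF5, ASNS, WARS1, MT1X, MT2A, IFIT2 and IFIT3 the MV4-11 DMSO cultures stand above the other 9, S100A8, MPEG1, ACP3 and SFPQ are lowest there, and GSDMB and ULBP2 are lowest in MOLM-14 with ABT-869.

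The promoter of ASNS is shown because it holds the letters to which ATF4 binds with a C/EBP partner. The motif searched was TGATGNAA on both strands, in the window of 250 bases before to 50 bases after the transcription start (RefSeq, GRCh38.p14). It stood in 11 of 49 promoters that matched among the measured genes of the 4 lists (22.4%), and in 2.62% of 15382 promoters of measured genes. Of 22 list genes with at least 1 called probe set, 20 matched and 5 (25.0%) held it: AARS1, ASNS, CARS1, SLC3A2 and SLC7A1. It was in the windows of neither TRIB3, CEBPB, ATF5 nor WARS1. A match is a description of these letters only. The window of ASNS is chr7:97872359-97872658 on the minus strand, printed 5′ to 3′ along the gene with the motif in capitals.
ASNS: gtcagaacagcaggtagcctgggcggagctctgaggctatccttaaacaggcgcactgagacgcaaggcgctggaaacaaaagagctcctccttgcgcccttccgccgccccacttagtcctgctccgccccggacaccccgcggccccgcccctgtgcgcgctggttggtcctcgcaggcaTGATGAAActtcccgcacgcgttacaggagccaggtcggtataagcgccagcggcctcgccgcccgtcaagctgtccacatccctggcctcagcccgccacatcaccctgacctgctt

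The metallothioneins, small cysteine-rich proteins that bind zinc and copper, moved as a block and were named after their values were seen. Of the 12 probe sets for MT1 genes and MT2A, 11 had a called line difference, from 1.39 to 2.01, and a probe set of MT1G had 1.27 (adjusted p = 0.357). MT1X had 5560, 6824 and 6087 in MOLM-14 with ABT-869, 5950, 5962 and 4907 in MOLM-14 with DMSO, 4634, 6079 and 6488 in MV4-11 with ABT-869 and 21413, 20776 and 20328 in MV4-11 with DMSO. The ranges of both MOLM-14 groups and of MV4-11 with ABT-869 overlapped, and MV4-11 in DMSO was 3.67-fold above MV4-11 in ABT-869. MT2A had 6964, 7667 and 7751 in MOLM-14 with ABT-869, 7324, 7007 and 6586 in MOLM-14 with DMSO, 5770, 7443 and 7831 in MV4-11 with ABT-869 and 25770, 22637 and 23401 in MV4-11 with DMSO. Line differences were 2.01 ± 0.20 for MT1X and 1.88 ± 0.20 for MT2A. The coding sequences of the MT1 genes are nearly alike, and most of these probe sets can take signal from several of them, so the 11 are not 11 separate genes.

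The zinc exporter SLC30A1, like the metallothioneins a known target of the zinc-sensing factor MTF1, had 3224, 3130 and 3101 in MOLM-14 with ABT-869, 2590, 2414 and 2699 in MOLM-14 with DMSO, 2288, 2181.5 and 2393 in MV4-11 with ABT-869 and 4077, 3518 and 4501 in MV4-11 with DMSO. It changed by 0.30 in MOLM-14 (adjusted p = 0.47) and fell by 0.81 in MV4-11, and its line difference was 1.11 ± 0.17 (adjusted p = 0.00309). The 3 probe sets of MTF1 had -0.40, -0.37 and -0.17 and none was called. The windows of MT2A and MT1X are shown with the letters of the metal response element, TGCNCNC on both strands, in capitals. This motif was added after the data were seen. It is short: 60.8% of 15382 promoters of measured genes held it at least once, and what these windows show is its repetition, 8 matches in MT2A and 4 in MT1X. The windows are chr16:56608334-56608633 and chr16:56682220-56682519, both on the plus strand (RefSeq, GRCh38.p14).
MT2A: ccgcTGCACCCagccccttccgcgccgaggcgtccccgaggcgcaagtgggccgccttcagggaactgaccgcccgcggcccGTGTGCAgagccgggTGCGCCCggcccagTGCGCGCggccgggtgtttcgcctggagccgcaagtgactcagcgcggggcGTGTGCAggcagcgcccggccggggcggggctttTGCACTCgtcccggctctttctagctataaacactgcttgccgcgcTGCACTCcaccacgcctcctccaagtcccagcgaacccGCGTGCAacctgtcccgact
MT1X: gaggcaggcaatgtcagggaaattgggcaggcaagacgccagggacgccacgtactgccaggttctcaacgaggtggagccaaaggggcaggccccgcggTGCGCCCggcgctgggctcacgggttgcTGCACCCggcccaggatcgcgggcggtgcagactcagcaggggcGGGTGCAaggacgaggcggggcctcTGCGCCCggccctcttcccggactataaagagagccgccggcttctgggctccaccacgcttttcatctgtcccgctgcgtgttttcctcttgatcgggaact

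Of 34 interferon-induced genes measured, 5 were higher (1.24% of all genes) and 0 lower, with a median line difference of 0.23. In MOLM-14, 0 of the 34 passed (0.733% of all genes did), and in MV4-11 6 fell (5.06% of all genes). The 5 were the tetratricopeptide genes IFIT2, IFIT3 and IFIT1, which bind or act on viral RNA, the ubiquitin-like ISG15 and the RNA sensor IFIH1. IFIT2 had 141, 127 and 172 in MOLM-14 with ABT-869, 152, 150 and 257 in MOLM-14 with DMSO, 102, 117 and 138 in MV4-11 with ABT-869 and 1099, 1360 and 912 in MV4-11 with DMSO. IFIT3 had 120, 158 and 170 in MOLM-14 with ABT-869, 119, 137 and 242 in MOLM-14 with DMSO, 121, 167 and 120 in MV4-11 with ABT-869 and 898, 1202 and 668 in MV4-11 with DMSO. For both genes only MV4-11 in DMSO was high, at 9.4-fold (IFIT2) and 6.7-fold (IFIT3) above MV4-11 in ABT-869. The line difference was 2.92 ± 0.35 for IFIT2 (adjusted p = 0.000418), 2.65 ± 0.32 for IFIT3 (adjusted p = 0.000446) and 1.95 ± 0.46 for IFIT1 (adjusted p = 0.0483). ISG15 had 1.02 (adjusted p = 0.0498) and IFIH1 0.89. IFIT1, ISG15 and IFIH1 were named after their values were seen. The count of 5 in this list was 2 to 4 when 1 array was left out.

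The promoters of IFIT3 and IFIT1 are shown because both hold the letters of the interferon response core, which is GAAA, any pair of bases and GAAA again on either strand, more than once. The matches are in capitals and read as their reverse complement here. It stood in all 4 promoters that matched among the 5 called genes, and in 2.95% of 15382 promoters of measured genes. The 5 came from a list of interferon-induced genes, a choice that favours these letters. The share over all measured members of that list was not counted, so the match is a description only. The windows are chr10:89327747-89328046 and chr10:89392373-89392672, both on the plus strand (RefSeq, GRCh38.p14).
IFIT3: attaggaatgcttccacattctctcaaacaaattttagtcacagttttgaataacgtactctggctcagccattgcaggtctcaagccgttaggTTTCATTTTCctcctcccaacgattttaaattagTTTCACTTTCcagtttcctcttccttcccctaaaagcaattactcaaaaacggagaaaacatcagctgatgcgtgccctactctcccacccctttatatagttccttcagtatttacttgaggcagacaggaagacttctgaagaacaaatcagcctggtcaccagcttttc
IFIT1: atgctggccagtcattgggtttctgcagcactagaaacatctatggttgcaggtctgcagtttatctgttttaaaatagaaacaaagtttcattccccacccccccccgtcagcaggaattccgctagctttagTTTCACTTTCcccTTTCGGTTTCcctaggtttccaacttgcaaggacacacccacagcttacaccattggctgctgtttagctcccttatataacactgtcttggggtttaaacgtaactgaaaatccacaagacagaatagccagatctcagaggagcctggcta

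The targets of STAT5 include genes that fell in both lines, and CISH and PIM1 fell further in MV4-11. Of 18 measured, 4 had a higher and 2 a lower line difference (1.24% and 0.981% of all genes), with a median of 0.08. In MOLM-14, 3 fell and 0 rose (0.506% and 0.228% of all genes), and in MV4-11, 6 fell and 1 rose (5.06% and 4.7%). CISH, a feedback inhibitor of cytokine signalling, had 1236, 1235 and 1675 in MOLM-14 with ABT-869, 2687, 2518 and 2415 in MOLM-14 with DMSO, 1465, 1837 and 1512 in MV4-11 with ABT-869 and 5383, 5376 and 5626 in MV4-11 with DMSO. ABT-869 and DMSO did not overlap in either line, and both lines overlapped under ABT-869. CISH fell by 0.89 in MOLM-14 (1.86-fold) and by 1.77 in MV4-11 (3.42-fold), for a line difference of 0.88 ± 0.16 (adjusted p = 0.0101).

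PIM1, a survival kinase, had 627, 620 and 682 in MOLM-14 with ABT-869, 1749, 1574 and 2318 in MOLM-14 with DMSO, 543, 601 and 496 in MV4-11 with ABT-869 and 2747, 2767 and 2920 in MV4-11 with DMSO. It fell 2.89-fold in MOLM-14 and 5.16-fold in MV4-11. PIM1 had a line difference of 0.84 ± 0.19 (adjusted p = 0.0385), which lost its call in 10 of the 12 fits that left 1 array out, at adjusted p up to 0.0948. SOCS1, another feedback inhibitor, fell by 0.97 in MOLM-14 and by 1.15 in MV4-11, and its line difference had a 95% interval of -0.213 to 0.562. SOCS2, named after its values were seen, had a line difference of 0.55 (adjusted p = 0.00289). MYC had 0.43 (adjusted p = 0.043, lost in 10 of 12 such fits). The receptor IGF1R had -0.67 and the cytokine LTB -0.89, of which LTB (adjusted p = 0.04996) lost its call in 10 of 12.

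The promoter of CISH is shown for its STAT letters. TTCNNNGAA, a sequence that reads the same on both strands, stood 4 times in the window chr3:50611725-50612024 on the minus strand (RefSeq, GRCh38.p14), and at least once in 6.95% of 15382 promoters of measured genes. It was absent from the windows of PIM1 and S100A8, which says nothing of sites outside them.
CISH: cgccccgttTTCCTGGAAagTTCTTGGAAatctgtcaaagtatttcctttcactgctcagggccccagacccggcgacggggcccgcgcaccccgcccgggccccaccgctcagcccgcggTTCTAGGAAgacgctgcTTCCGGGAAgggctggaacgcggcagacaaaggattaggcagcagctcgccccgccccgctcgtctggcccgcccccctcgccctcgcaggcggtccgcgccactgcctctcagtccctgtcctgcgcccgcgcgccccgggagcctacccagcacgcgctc

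FLT3 itself had 11452, 10970 and 10852 in MOLM-14 with ABT-869, 10511, 11199 and 10740 in MOLM-14 with DMSO, 14056, 16540 and 16736 in MV4-11 with ABT-869 and 15166, 14953 and 14875 in MV4-11 with DMSO. The lines differed in level and not detectably in response, with a line difference of -0.03 and a 95% interval of -0.187 to 0.122. Of the 10 receptors that ABT-869 or its class can bind, 2 were lower (0.981% of all genes), CSF1R and RET. RET had 5562, 5032 and 4784 in MOLM-14 with ABT-869, 4347, 4212 and 4133 in MOLM-14 with DMSO, 6231, 5659 and 6146 in MV4-11 with ABT-869 and 3536, 3403 and 3313 in MV4-11 with DMSO. It rose in both lines, by 0.27 in MOLM-14 and by 0.81 in MV4-11, and the line difference was -0.54 ± 0.08 (adjusted p = 0.00252).

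The monocyte and macrophage genes moved the other way. Of 27 measured, 0 were higher and 6 lower (1.24% and 0.981% of all genes), with a median line difference of -0.52. In MOLM-14, 1 of the 27 rose and 0 fell (0.228% and 0.506% of all genes). In MV4-11, 12 rose and 0 fell (4.7% and 5.06% of all genes). S100A8, a calcium-binding alarmin of monocytes and neutrophils, had 4180, 3846 and 3870 in MOLM-14 with ABT-869, 4413, 4443 and 3112 in MOLM-14 with DMSO, 1530, 977 and 956 in MV4-11 with ABT-869 and 229, 239 and 315 in MV4-11 with DMSO. MOLM-14 was above MV4-11 in each treatment, and only MV4-11 changed, by 4.36-fold. The line difference was -2.12 ± 0.32 (adjusted p = 0.00233). A second, dim probe set of S100A8 gave 1.21 and was not called. Its partner S100A9 had 626, 452 and 477 in MOLM-14 with ABT-869, 910, 888 and 666 in MOLM-14 with DMSO, 239, 232 and 215 in MV4-11 with ABT-869 and 120, 99.2 and 90.1 in MV4-11 with DMSO. It changed by -0.67 in MOLM-14 (adjusted p = 0.23) and rose by 1.16 in MV4-11, for a line difference of -1.82 ± 0.28.

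MPEG1, which encodes the pore-forming perforin-2 of macrophages, had 281, 277 and 329 in MOLM-14 with ABT-869, 147, 172 and 281 in MOLM-14 with DMSO, 390, 388 and 437 in MV4-11 with ABT-869 and 90.1, 47.9 and 40.9 in MV4-11 with DMSO. The groups overlapped in MOLM-14 and stood 7.21-fold apart in MV4-11. The line difference was -2.23 ± 0.35 (adjusted p = 0.0032), and its second probe set had -1.31 (adjusted p = 0.0556). CSF1R, the receptor for macrophage colony-stimulating factor and also a target of ABT-869, had 662, 649 and 593 in MOLM-14 with ABT-869, 585, 537 and 544 in MOLM-14 with DMSO, 945, 1070 and 1125 in MV4-11 with ABT-869 and 538, 531 and 429 in MV4-11 with DMSO. CSF1R had a line difference of -0.88 ± 0.16 (adjusted p = 0.0105). MS4A4A and MS4A7, membrane proteins of macrophages named after their values were seen, had -1.78 and -0.84.

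MS4A6A of the same family passed the test in both lines: it rose by 0.78 in MOLM-14 and by 1.40 in MV4-11, and its line difference of -0.62 missed the threshold (adjusted p = 0.11). Lysozyme (LYZ) and the integrin ITGAM rose in MV4-11, by 0.49 and 0.53, with line differences of -0.39 (adjusted p = 0.0902) and -0.57 (adjusted p = 0.0511). Of 10 genes of the primary granules, cathepsin G (CTSG) was higher, at 0.61, and 0 were lower (1.24% and 0.981% of all genes). At an unadjusted limma p under 0.05, 2 of the 10 were higher and 4 lower. The count called was 1 to 4 when 1 array was left out. Of 13 myeloid transcription factors, CEBPB and BATF3 were higher (1.24% of all genes), at 1.55 and 0.75. IRF8, which directs monocyte development, was lower (0.981% of all genes), at -0.41 (adjusted p = 0.0468). BATF3 lost its call in 6 and IRF8 in 10 of the 12 fits that left 1 array out. Of 9 HOXA and KMT2A-fusion target genes, 0 were called by limma, near the 2.22% called of all genes, and 3 had an unadjusted p under 0.05.

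**Figure D3:**
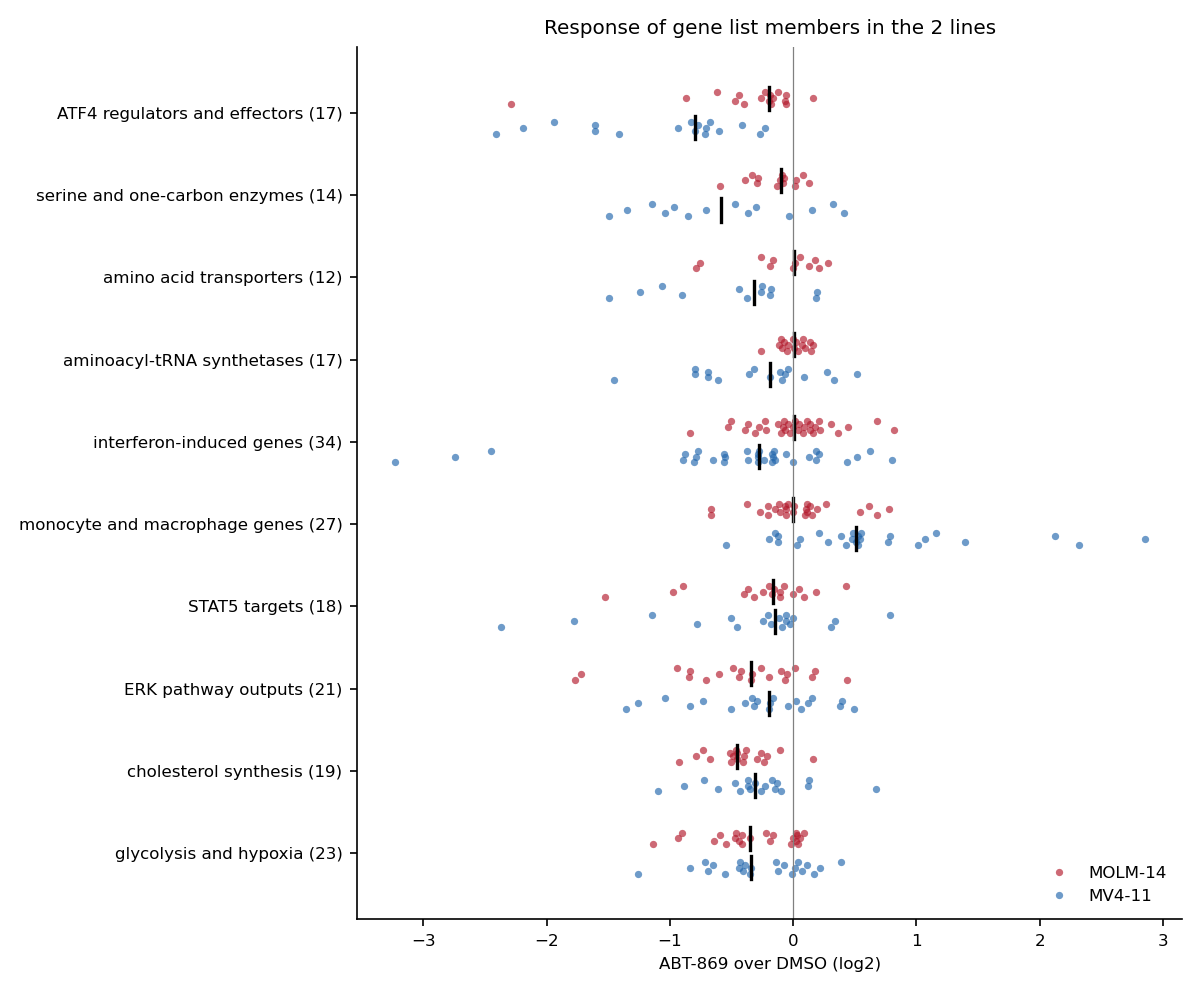
Change with ABT-869 against DMSO (log2) for the measured genes of 10 lists, in MOLM-14 (red, upper row of each list) and in MV4-11 (blue, lower row); each point is 1 gene by 1 probe set, black bars are medians, and the number of genes is in brackets. The ATF4 regulators had a median of -0.20 in MOLM-14 and -0.80 in MV4-11 and the monocyte genes -0.00486 in MOLM-14 and 0.51 in MV4-11, while for cholesterol synthesis both medians were below 0.

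Some changes passed the test in MOLM-14 and not in MV4-11. GSDMB, a gasdermin that can form membrane pores, had 9.7, 15.2 and 13.7 in MOLM-14 with ABT-869, 147, 118 and 152 in MOLM-14 with DMSO, 237, 201 and 255 in MV4-11 with ABT-869 and 200, 209 and 289 in MV4-11 with DMSO. All 3 MOLM-14 cultures with ABT-869 were under the floor of 32, so the signal was at least 4.32-fold lower there than in MOLM-14 with DMSO, and the line difference of -2.12 (adjusted p = 0.00211) is a bound as well. Of the other probe sets of GSDMB, 1 had -0.72 and 1 had 0.18, and neither was called. SAMD4A, an RNA-binding repressor of translation, had 41.6, 32.9 and 60.0 in MOLM-14 with ABT-869, 99.1, 121 and 139 in MOLM-14 with DMSO, 160, 142 and 162 in MV4-11 with ABT-869 and 127, 86.7 and 145 in MV4-11 with DMSO. It fell by 1.45 in MOLM-14, and the line difference was -1.85 ± 0.34.

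ULBP2, a ligand of the NKG2D receptor of natural killer cells, had 92.6, 68.8 and 120 in MOLM-14 with ABT-869, 231, 194 and 244 in MOLM-14 with DMSO, 250, 263 and 280 in MV4-11 with ABT-869 and 247, 312 and 207 in MV4-11 with DMSO. Only MOLM-14 with ABT-869 was low, and ULBP2 had a line difference of -1.35 ± 0.26 (adjusted p = 0.0153). HEXIM2, an inhibitor of the elongation factor P-TEFb, and SOCS6, a suppressor of cytokine signalling that binds activated receptors, fell by 0.76 and 0.79 in MOLM-14, with line differences of -1.25 and -1.09. In MV4-11 HEXIM2 had 0.48 (adjusted p = 0.0877), with signals that did not overlap between ABT-869 and DMSO, and SOCS6 had 0.30 (adjusted p = 0.231). The retinaldehyde dehydrogenase ALDH1A3 and the retinoic acid hydroxylase CYP26B1 fell by 1.03 and 0.96 in MOLM-14 and changed by -0.33 and 0.06 in MV4-11 without passing, with line differences of -0.70 and -1.02. In the other direction, CFAP73 had 188, 290 and 328 in MOLM-14 with ABT-869 and 15.2, 24.7 and 104 in MOLM-14 with DMSO, and 49.6, 81.0 and 112 in MV4-11 with ABT-869 and 74.3, 97.8 and 217 in MV4-11 with DMSO. Its line difference of 3.07 ± 0.68 (adjusted p = 0.0334) lost its call in 6 of the 12 fits that left 1 array out. Of these genes, ULBP2, HEXIM2, SOCS6, ALDH1A3 and CYP26B1 were named after their values were seen, and GSDMB, SAMD4A, ULBP2, HEXIM2, SOCS6 and CFAP73 each have further probe sets without a call.

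Other lists had members that fell in each line. Of 21 outputs of the ERK pathway, 1 was higher and 1 lower, a share above the 2.22% called of all genes, with a median of -0.12. At an unadjusted limma p under 0.05, 2 were higher and 4 lower. In MOLM-14, 6 fell (0.506% of all genes), and in MV4-11, 7 fell (5.06%). SPRY2, an inhibitor of the pathway that the pathway induces, fell by 0.44 in MOLM-14 and by 0.31 in MV4-11, with a 95% interval of the line difference of -0.369 to 0.125. PHLDA1 fell by 0.95 and 0.84, with an interval of -0.598 to 0.38. The immediate early factor EGR1 fell by 1.72 in MOLM-14 and changed by -0.73 in MV4-11 (adjusted p = 0.17), and its line difference of -0.99 was not called (adjusted p = 0.323). The stress factor ATF3 was the gene called higher, at 1.09 (adjusted p = 0.00853), and SPRED1 the gene called lower, at -0.83 (adjusted p = 0.0427, lost in 9 of the 12 fits that left 1 array out).

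Of 19 genes of cholesterol synthesis, 0 had a line difference called by limma (2.22% of all genes did) and 3 had an unadjusted p under 0.05. In a list this short, a count of 0 is near that share. In MOLM-14, 8 fell (0.506% of all genes), with a median of -0.45 over the list, and in MV4-11, 6 fell (5.06% of all genes), with a median of -0.31. STARD4, a sterol carrier, fell by 0.92 in MOLM-14 and by 0.88 in MV4-11, and the interval of its line difference was -0.299 to 0.219. INSIG1, which holds back the sterol-sensing factor SREBP, fell by 0.46 and 0.43, with an interval of -0.256 to 0.196, and the reductase DHCR7 by 0.47 in each line, with an interval of -0.229 to 0.236. Of 23 genes of glycolysis and hypoxia, 0 were called by limma, also near the 2.22% of all genes, and 5 had an unadjusted p under 0.05. In MOLM-14, 7 of the 23 fell (0.506% of all genes), and in MV4-11, 8 fell (5.06%).

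The cell cycle lists had 1 or 2 called genes each, which is not below the share over all genes (2.22%). Of 30 mitosis genes, the kinesin KIF11 was lower, at -0.47, and of 38 DNA replication genes, the helicase subunit GINS3 was lower, at -0.65 (lost in 3 of the 12 fits that left 1 array out). A second probe set of GINS3, nearly as bright, had -0.01 and was not called. In MOLM-14, 0 of the 38 replication genes passed (0.733% of all genes did), and in MV4-11, 11 rose and 2 fell (4.7% and 5.06% of all genes). Of 17 cyclins and inhibitors of G1, the inhibitor CDKN2D was higher, at 0.94, and cyclin E2 (CCNE2) lower, at -0.90, and both lost their calls in 10 of 12 such fits. Of 24 ribosome biogenesis genes, MYC, named above, was called higher (1.24% of all genes). PMAIP1 (NOXA), which promotes cell death, was the gene called higher among 15 of the BCL2 family (1.24% of all genes, list median 0.02), at 0.84. It had 1796, 1918 and 2035 in MOLM-14 with ABT-869, 1836, 1819 and 2026 in MOLM-14 with DMSO, 1933, 1493 and 1507 in MV4-11 with ABT-869 and 2875, 3123 and 2676 in MV4-11 with DMSO. GADD45A, a stress-induced growth inhibitor, was the gene called higher among 17 targets of p53 (1.24% of all genes, list median 0.06), at 0.92. The chaperone DNAJB9 was that among 18 of the unfolded protein response (1.24% of all genes, list median 0.19), at 0.48. TNF was the gene called lower among 17 chemokines and cytokines (0.981% of all genes, list median 0), at -1.28 ± 0.25.

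Of single genes outside the lists, PYGB, the brain form of glycogen phosphorylase, had 719, 624 and 595 in MOLM-14 with ABT-869, 750, 517 and 458 in MOLM-14 with DMSO, 292, 311 and 385 in MV4-11 with ABT-869 and 1205, 1025 and 1239 in MV4-11 with DMSO. Its line difference was 2.02 ± 0.27 (adjusted p = 0.00092). The interleukin 31 receptor IL31RA had 2.16, the S100 protein S100P 1.94 and the desumoylating protease SENP6 1.26, the last 2 named after their values were seen. A brighter probe set of SENP6 had 0.47 and was not called. IL32, an inflammatory cytokine, had 188, 96.0 and 135 in MV4-11 with DMSO and was under 32 in the other 9 arrays, so its line difference of 2.07 rests on the floor. The chemokine CCL20 had 2.57, TBX2 2.55 and ZCCHC4 2.44, and each lost its call in 9 or 10 of the 12 fits that left 1 array out. CCL20 was under 32 in 3 cultures of MOLM-14 with ABT-869, 2 with DMSO and 2 of MV4-11 with ABT-869. Its line difference therefore rests in part on the floor. ZCCHC4, SKAP2 (2.80), CTBP2 (-2.17), MLXIP (-1.83) and DPP9 (-2.04) had other, mostly brighter probe sets without a call, so these values hold for 1 probe set and not for the gene. COXFA4L2 (2.21), CLGN (2.03), LOC100506858 (-2.24) and NRAV (-1.94) were also among the genes named by size, and CLGN and LOC100506858 lost their calls in 7 of 12 such fits. LOC100506858 was under 32 in all cultures of MV4-11 with DMSO, so its value is a bound.

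On the lower side, SFPQ, a splicing factor, had 11039, 10345 and 10519 in MOLM-14 with ABT-869, 9589, 9206 and 8921 in MOLM-14 with DMSO, 8015, 7117 and 7191 in MV4-11 with ABT-869 and 2961, 2699 and 2354 in MV4-11 with DMSO. SFPQ had a line difference of -1.28 ± 0.11 (adjusted p = 1.62e-05), and all 5 probe sets of SFPQ were below 0, with 2 called. ACP3, an acid phosphatase, had 1830, 1957 and 2155 in MOLM-14 with ABT-869, 2170, 2010 and 2619 in MOLM-14 with DMSO, 1166, 1281 and 1087 in MV4-11 with ABT-869 and 354, 472 and 410 in MV4-11 with DMSO. Its line difference was -1.71 ± 0.18. ALDH4A1, an enzyme of proline breakdown, had 244, 212 and 192 in MOLM-14 with ABT-869, 311, 282 and 155 in MOLM-14 with DMSO, 230, 171 and 179 in MV4-11 with ABT-869 and 12.3, 73.6 and 58.3 in MV4-11 with DMSO, with a line difference of -2.05 ± 0.37. The antimicrobial peptide gene DEFB1 was under 32 in all cultures of MOLM-14 with ABT-869 and of MV4-11 with DMSO and had -2.62, which is a bound. FGL2, a membrane prothrombinase of macrophages, had -1.31. SFPQ, ACP3 and FGL2 were named after their values were seen.

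The distance between the lines in each treatment is given beside the line difference, with which it shares arrays. For the 383 higher probe sets, MOLM-14 minus MV4-11 had a median of 0.14 in ABT-869 and -0.56 in DMSO. For the 330 lower ones it was -0.19 in ABT-869 and 0.56 in DMSO. TRIB3 had -0.08 in ABT-869 and -1.83 in DMSO, MT1X 0.11 and -1.90, and IFIT2 0.30 and -2.62. For these 3 genes the lines were apart in DMSO and not detectably apart in ABT-869, at adjusted p of 0.68, 0.699 and 0.502 in ABT-869. S100A8 stayed apart, with 1.81 in ABT-869 and 3.93 in DMSO. GSDMB was the reverse, with -2.85 in ABT-869 and -0.73 in DMSO, and SAMD4A had -1.83 and 0.02. Across 19775 genes the responses of both lines, which share no arrays, correlated at 0.1, and at 0.285 across the 9887 genes with a mean above the median. These values describe genes, which are not independent replicates.

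**Figure D4:**
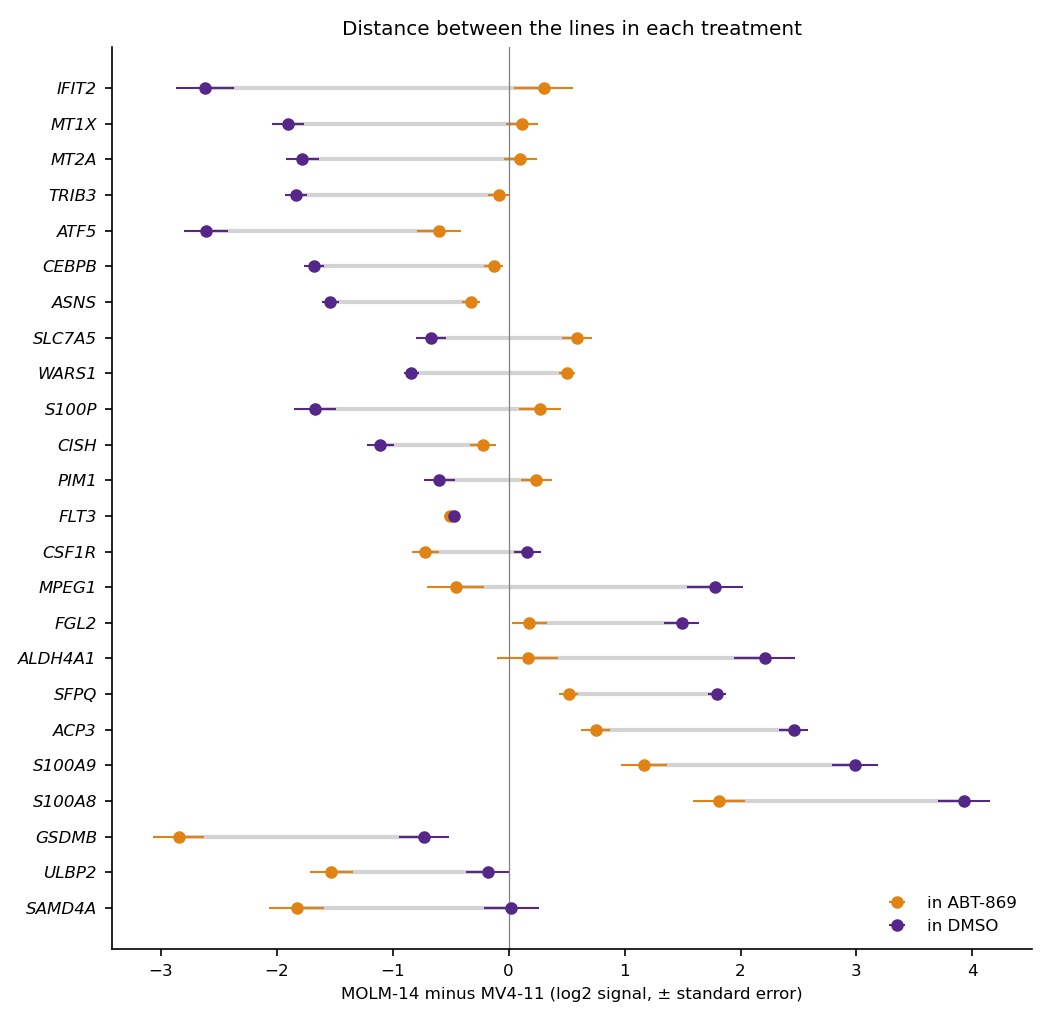
MOLM-14 minus MV4-11 (log2 signal) in ABT-869 (orange) and in DMSO (purple) for 24 genes, with the SE of the limma fit as bars and a grey line between both values, whose signed length is the line difference. IFIT2, MT1X, MT2A, TRIB3 and CEBPB are below -1 in DMSO and between -0.13 and 0.30 in ABT-869, and SLC7A5 and WARS1 are on opposite sides of 0. GSDMB and ULBP2 are further below 0 in ABT-869 than in DMSO, and SAMD4A is below 0 in ABT-869 and at 0.02 in DMSO.

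The other 12 arrays gave the same contrast on top of SAHA, as the combination over SAHA alone in MOLM-14 minus that in MV4-11, and share no array with the line difference. On top of SAHA, 555 of 54613 probe sets were called (1.02%), 314 higher (0.575%) and 241 lower (0.441%), and 365 of 19775 genes (1.85%). Of the 383 probe sets higher without SAHA, 245 (64%) were above 0 on top of SAHA, 56 were called higher and 4 lower, and the median was 0.13. Of the 330 lower ones, 216 (65.5%) were below 0, 13 were called lower and 4 higher, and the median was -0.12. Over all probe sets 52.1% were above 0, and the median was 0.02. The difference between both contrasts was itself called for 83 of the 383 (higher without SAHA), for 50 of the 330 (lower without SAHA) and for 255 of all 54613 (0.467%). The 383 and 330 were picked by the line difference without SAHA, which is part of this difference. That choice favours a pass in the same direction, so these counts cannot be read against the share over all probe sets.

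The gene groups differed in what was left on top of SAHA. Most metallothionein probe sets were also called higher on top of SAHA, with 1.28 ± 0.20 for MT1X (adjusted p = 0.0035) and 1.0 ± 0.20 for MT2A (adjusted p = 0.023). MT1M had 0.15 and MT1HL1 1.48 (adjusted p = 0.105), and neither passed, nor did the zinc exporter SLC30A1, at -0.25. CISH and PIM1 had 0.87 (adjusted p = 0.014) and 1.33 (adjusted p = 0.0022). RET was still lower, with -0.60 (adjusted p = 0.0014), and TNF had -2.01 (adjusted p = 0.00061). Of the 19 called amino acid genes 0 were called by limma on top of SAHA (1.85% of all genes were), a count near that share. Their median was -0.02, against 0.82 without SAHA. These 19 were picked by their line difference without SAHA. Over all 60 measured genes of the 4 lists the median was -0.02 on top of SAHA, against 0.34 without it. TRIB3 had -0.01 on top of SAHA, and the change of its line difference, 1.76, passed (adjusted p = 0.00045), as did those of CEBPB (1.73), WARS1 (1.53), SLC7A5 (1.47) and ASNS (1.11). All 17 aminoacyl-tRNA synthetases were below 0 on top of SAHA, with a median of -0.26 and 4 called lower (0.804% of all genes).

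Of the 27 monocyte and macrophage genes, limma called 0 on top of SAHA, near the 1.85% called of all genes, and 6 had an unadjusted p under 0.05. Their median was 0.19, against -0.52 without SAHA. MPEG1 had -0.45 on top of SAHA, and the change of its line difference did not pass (-1.79, adjusted p = 0.15). S100A8 had 0.91 on top of SAHA (adjusted p = 0.24) and -2.12 without it, and that change passed (-3.02, adjusted p = 0.0062). It fell by 1.26 in MV4-11 on top of SAHA and rose by 2.12 in MV4-11 without it. ACP3 was called in opposite directions, at 1.05 on top of SAHA (adjusted p = 0.0075) and -1.71 without it. So were BATF3, at -0.72 on top of SAHA (adjusted p = 0.0445) and 0.75 without it, and KIF11, at 0.70 and -0.47, of which the value without SAHA lost its call with centred arrays and with a floor of 1. With KIF11, 23 of the 30 mitosis genes were called higher on top of SAHA (1.04% of all genes), with a median of 0.89, against 0 higher without SAHA (1.24% of all genes). GSDMB had 0.11 on top of SAHA (adjusted p = 1).

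**Figure D5:**
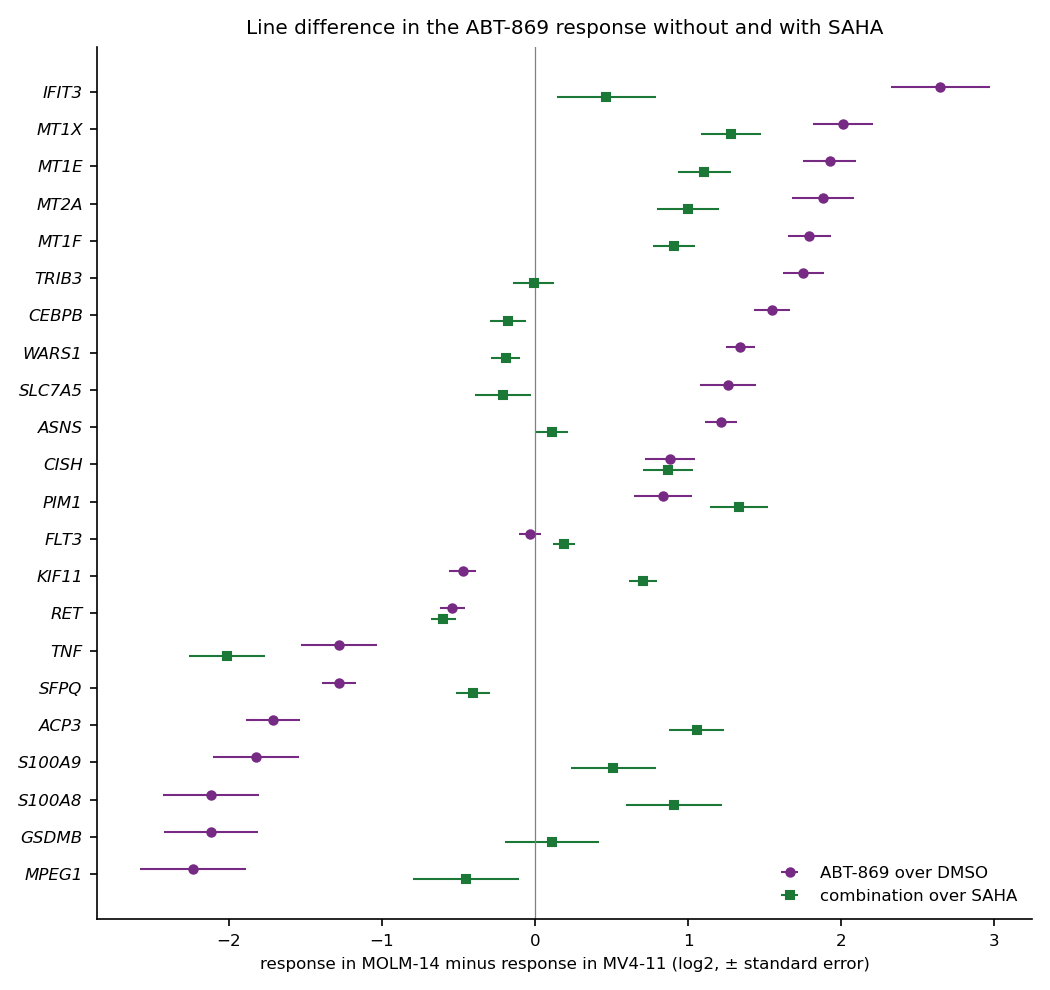
Line difference (log2, with the SE of the limma fit) of 22 genes for ABT-869 over DMSO (purple circles) and for the combination over SAHA (green squares), from arrays that do not overlap. MT1X, CISH, PIM1, RET and TNF keep their side of 0 and are called in both, and TRIB3, CEBPB and WARS1 are near 0 on top of SAHA. ACP3 and KIF11 are called on opposite sides of 0. S100A8 and S100A9 also change sides, at 0.91 and 0.51 on top of SAHA, where neither is called.

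The labelled cell type was checked against marker genes, which do not tell MOLM-14 from MV4-11. Of 10 myeloid markers measured, 9 had a signal of at least 32 on all 12 arrays, and their summed signal was 41300 to 44800 in MOLM-14 with ABT-869, 43800 to 44100 in MOLM-14 with DMSO, 51400 to 56900 in MV4-11 with ABT-869 and 46100 to 48900 in MV4-11 with DMSO. The summed signals of the lists for T cells, B cells, epithelial cells and fibroblasts were between 240 and 1320 in all cultures. Of their 23 measured genes, 0 had a called line difference (2.22% of all genes did). The summed signal of the erythroid list was 200 to 327. Of 3 erythroid markers, KLF1 was called at 1.26 (adjusted p = 0.04996, lost in 11 of the 12 fits that left 1 array out), with signals of 19.0 to 81.4. In bulk cultures, more signal per cell and more cells of a kind cannot be told apart.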

How the data were processed

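Total RNA from 24 cultures (2 lines, 4 treatments, 3 biological replicates by the labels) was hybridised to Affymetrix U133 Plus 2.0 arrays, 1 per culture. The deposited values are intensity, 1 linear signal per probe set, that the authors had summarised from the probes and scaled to a common trimmed mean. For the software, the sources used here give no name. Precision is set by the number of arrays. It is not stated whether replicates were started on separate days, so p-values measure the spread between these cultures.

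Before log2, any signal under 32 was set to 32. Nothing else was normalized, and 62 control probe sets were dropped. Genes were named from the platform annotation: 41091 probe sets name 1 gene, 41037 of them found in RefSeq by identifier, 1801 name several and 11721 are unnamed here. limma (version 3.58.1, R 4.3.3) fitted 8 groups over 24 arrays (lmFit, eBayes), and contrasts were called at a Benjamini-Hochberg adjusted p under 0.05. A gene is represented in lists by its probe set with the highest mean log2 signal. Lists are given as counts and medians with no set test. The script was tested on simulated data. Tables were handled in Python 3.11.15 with pandas 2.3.3.

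The rule for named genes took, among called probe sets with 1 gene and a mean signal of at least 100 in a group, the 12 most positive and 12 most negative line differences, the 2 most extreme called members of each list in each direction, and FLT3 and PIM1. Other genes are marked in the text. The 28 gene lists and this comparison were chosen with earlier results of these data known. Alternatives were the floor, the normalization, a filter on dim probe sets, limma-trend, a fit of 12 arrays, array weights, a replicate block, each array left out, and other call rules. The fit without 2 arrays and the test of the difference between both contrasts were added after seeing the data.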

Additional observations from a re-analysis of the deposited data

Results flagged for a closer look

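The line difference tests the response of 1 line against that of the other, and 383 probe sets were higher and 330 lower in MOLM-14. The values that follow are the line difference without SAHA minus that on top of SAHA (log2), for named genes where this difference passed an adjusted p of 0.05 in limma. Most named genes were picked by a called line difference without SAHA, which favours such a pass. Among genes of amino acid supply it was 1.76 for TRIB3, 1.73 for CEBPB, 1.53 for WARS1, 1.47 for SLC7A5, 1.11 for ASNS, 1.01 for YARS1 and 0.98 for SLC3A2. Among immune and myeloid genes it was 2.18 for IFIT3, 2.40 for IL31RA, 1.47 for BATF3, 0.96 for CTSG, -1.09 for CSF1R, -2.33 for S100A9 and -3.02 for S100A8. PYGB had 2.19, SLC30A1 1.36 and TSEN15, a subunit of the tRNA splicing endonuclease, 1.52.

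Among the other lower genes it was -0.87 for SFPQ, -1.18 for KIF11, -1.69 for SOCS6, -2.23 for GSDMB, -2.32 for SAMD4A, -2.77 for ACP3 and -3.02 for the dim probe set of CTBP2. With 3 cultures a group, no culture was tested as an outlier.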

How the results depend on the processing

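Against 713 called line differences (383 higher, 330 lower), 220 changes in MOLM-14, 3502 in MV4-11 and 555 line differences on top of SAHA, a floor of 1 gave 192 (106 higher, 86 lower), 44, 1770 and 127. Centring each array on its median gave 176 lower, 109 in MOLM-14 and 328 on top of SAHA, and moved the median of all line differences by 0.06. A fit of only the 12 arrays gave 320 (183 higher, 137 lower) and 62 in MOLM-14. It kept 247 of the 713 (34.6%) and lost 36 of the 75 called named genes. Those lost included CISH, PIM1, MPEG1, TNF, PMAIP1, CTSG, IL31RA, ALDH4A1, SAMD4A, ULBP2, HEXIM2 and SOCS6. Array weights gave 342 in MOLM-14. An added 2-fold minimum gave 187, and an adjusted p under 0.1 gave 1275. The cause of these shifts was not tested. The 12-array fit has fewer residual degrees of freedom, and it leaves out the MOLM-14 SAHA arrays. Those had the smallest spread around their group mean (SD 0.211 to 0.225).

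Leaving 1 array out gave 490 to 891 line differences (253 to 479 higher, 216 to 412 lower), 108 to 217 changes in MOLM-14, 2598 to 3563 in MV4-11 and 484 to 621 on top of SAHA. The count of higher calls was 253 without MOLM-14 DMSO replicate 2, and that of lower calls was 216 without MOLM-14 ABT-869 replicate 2. In MOLM-14 the count was 108 without DMSO replicate 1, 124 without DMSO replicate 2 and 112 without ABT-869 replicate 2. Without MV4-11 ABT-869 replicate 2 and MOLM-14 DMSO replicate 3, the arrays of widest deviation in each line and a choice made after seeing the data, 885 were called, of which 505 were among the 713.

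Deviations of same-numbered cultures correlated at -0.0379 to 0.11, and those of differently numbered cultures at -0.14 to 0.0549. Most same-numbered values lay above all the others, and whether the numbers pair the cultures was not tested. With the number as a replicate block within each line, 574 were called, and 139 in MOLM-14. With 1 replicate block shared by both lines, 666 were called.

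No called line difference of a named gene changed its sign in any alternative, and that of FLT3, which was not called, lay between -0.113 and 0.0124 with 1 array left out. Of 75 called, 29 kept their call in all alternatives that kept the call rule (an added 2-fold minimum was not among these), among them TRIB3, CEBPB, ASNS, WARS1, MT1X, MT2A, IFIT2, IFIT3, S100A8, S100A9, SFPQ and ACP3, and 53 kept it whichever array was left out. KIF11 lost its call with a floor of 1 and with centred arrays. So did CCNE2, GINS3, IRF8 and LTB, and all 5 had been called lower. In lists, the count with 1 array left out was 6 to 7 for ATF4 regulators, 4 to 6 for serine enzymes, 2 to 3 for transporters, 4 to 7 for tRNA synthetases, 6 to 8 for monocyte genes and 3 to 5 for STAT5 targets. Signals under 32 have no order, and 3773 probe sets were under it on all 12 arrays.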
